A study of Mus musculus with 16 samples.

Results

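A set of 10 genes that mark lung dendritic cells was followed across knockout and wild-type mice given an inhaled allergen or saline. They were Clec9a and Xcr1 of the cDC1 lineage, Cd209a, Clec10a and Mgl2 of cDC2 and monocyte-derived cells, the related lectins Cd209d and Cd209e, and the more widely used genes Itgax, Flt3 and Fscn1. Each was taken from probe sets whose annotation gave that symbol alone, and each had 1 such probe set, so 10 of the 19938 genes tested were members. Whole-lung total RNA was read on 16 whole-transcript arrays from Affymetrix, with 4 arrays in each group. The groups were Vldlr-/- mice given house dust mite (KO HDM), Vldlr-/- mice given saline (KO saline), wild-type B6129SF2/J mice given house dust mite (WT HDM) and wild-type B6129SF2/J mice given saline (WT saline). Vldlr encodes the very low density lipoprotein receptor. All mice were dosed through the nose in 10 µl on 5 days a week for 6 weeks, and a house dust mite (HDM) dose was 25 µg. The strain of the Vldlr-/- mice, the part of the gene that was disrupted, the age of the mice and how many animals gave each RNA were not stated in the sources used here. The p-values therefore weigh a difference of group means only against the spread between samples within groups, pooled over the 4 groups. HDM is an allergen mixture used to produce asthma-like inflammation in mouse airways.

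Dendritic cells carry inhaled antigen from the airway to lymph nodes and present it to T cells. The cDC1 lineage takes up material from dying cells and presents it to CD8 T cells. The cDC2 lineage and dendritic cells that arise from monocytes are known for starting T helper responses to HDM. The members of the lectin families read sugars on microbes, allergens and cells, and several of them are also found on macrophages. Whole lung holds all these cells at once, so more cells of a type and more RNA per cell cannot be told apart.

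All levels are RMA values on the log2 scale, and a change is a difference between 2 group means of such levels, given with its standard error (SE) from a limma fit over all genes. A gene passed at a Benjamini-Hochberg adjusted p under 0.05 over all 19938 genes. Levels of different probe sets cannot be set against each other, so each member was compared only with itself. Arrays carry the name of their group and a replicate number. Array medians lay between 8.78 and 8.85, and Sftpc, the surfactant gene of alveolar type II cells, between 13.41 and 14.09 (named after its values were seen). Vldlr was lower in KO than in WT lungs, by 0.93 under HDM and 0.76 under saline (adjusted p 0.000277 and 0.00697, limma), and the groups did not overlap in either comparison. Of the WT saline arrays, 2 and 3 stood apart from 1 and 4 in genes of allergic inflammation. Rnase2a, an eosinophil-associated ribonuclease, was at 11.47 and 11.22 on WT saline 2 and 3, against 8.54 and 9.68 on WT saline 1 and 4. For the members and the counts of all genes, results whose call rests on those arrays are given without them as well. The lists of other genes were not refitted without them.

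With HDM, Clec10a, Mgl2, Cd209d, Cd209e, Itgax and Fscn1 were higher in KO lungs, and Clec9a, Mgl2, Cd209d and Itgax were higher in WT lungs. In KO lungs, HDM against saline raised 6 of the 10 members and lowered none, and 4 did not pass, where 8.84% of all genes passed in either direction and 4.96% were higher. In WT lungs, HDM against saline raised 4 members and lowered none, where 17.6% of all genes passed and 7.86% were higher. Between genotypes under HDM, KO lungs had 6 members higher and 1 lower than WT lungs, where 11.7% of all genes passed, 5.84% higher and 5.83% lower. Under saline, 0 of 10 members passed between KO and WT lungs by limma, where 0.231% of all genes passed. At an unadjusted p under 0.05 there were 2 members, where 7.81% of all genes had such a p. The HDM change in KO minus the HDM change in WT, called the interaction here, was past the test for 1 member upward and 1 downward, where 0.802% of all genes passed. The arrays of the compared groups did not overlap for 7, 5, 6 and 1 of the 10 members in these first 4 comparisons, where 14%, 23.5%, 10.8% and 6.54% of all genes did not overlap in either direction. The median change of the members was 0.47 for HDM in KO, 0.38 for HDM in WT, 0.46 for KO against WT under HDM and 0.17 under saline. The median change of all genes in the same 4 comparisons was -0.028, -0.051, 0.02 and -0.007.

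**Figure D1:**
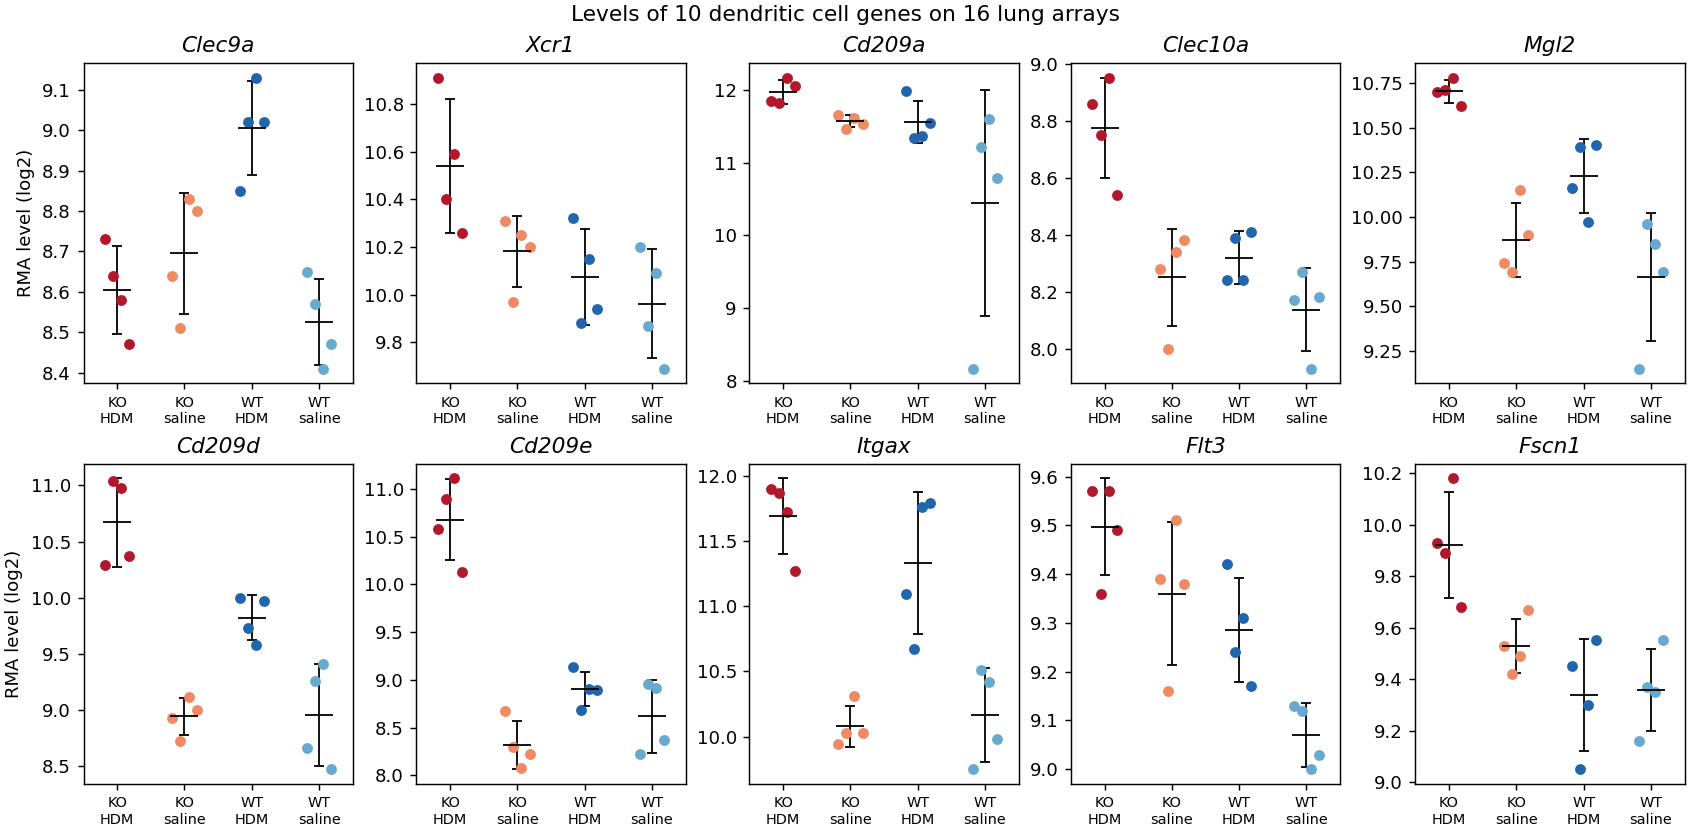
Log2 level of each member (vertical axis, 1 panel per gene) on each of the 16 arrays, as points by group from left to right (KO HDM, KO saline, WT HDM, WT saline), with a line at each group mean and bars of 1 SD (n = 4). Cd209e stood between 10.13 and 11.11 on the KO HDM arrays and at or below 9.13 on all other arrays, and Clec9a was highest on the WT HDM arrays.

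The 2 members with the largest changes with HDM in KO lungs were neighbours. Cd209d and Cd209e are paralogs of Cd209a, the mouse gene most often compared with human DC-SIGN, and encode C-type lectins whose cell types in the lung are less settled. The Cd209 genes measured here form a cluster of 7 genes that spans 394.3 kb on mouse chromosome 8 (GRCm38.p6), and the gap between Cd209e and Cd209d is 17.5 kb. Because the genes are similar in sequence, a probe set of one may also catch RNA of another, so the split between them is uncertain. Their promoters are shown because Cd209e and Cd209d passed the test in several comparisons and Cd209a in none. Each window runs from 250 bases before to 50 bases after the RefSeq start, 5′ to 3′ on the gene's own strand, and capitals mark a match to the STAT6 motif, which is TTC and GAA with any 4 bases between them.
Cd209e (GRCm38.p6, chr8:3854237-3854536, minus strand): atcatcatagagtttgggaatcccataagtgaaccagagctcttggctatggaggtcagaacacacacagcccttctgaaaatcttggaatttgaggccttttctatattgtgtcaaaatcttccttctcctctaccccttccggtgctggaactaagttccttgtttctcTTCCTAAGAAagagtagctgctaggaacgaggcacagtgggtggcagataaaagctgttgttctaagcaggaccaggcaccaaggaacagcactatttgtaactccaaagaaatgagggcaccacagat
Cd209d (GRCm38.p6, chr8:3878450-3878749, minus strand): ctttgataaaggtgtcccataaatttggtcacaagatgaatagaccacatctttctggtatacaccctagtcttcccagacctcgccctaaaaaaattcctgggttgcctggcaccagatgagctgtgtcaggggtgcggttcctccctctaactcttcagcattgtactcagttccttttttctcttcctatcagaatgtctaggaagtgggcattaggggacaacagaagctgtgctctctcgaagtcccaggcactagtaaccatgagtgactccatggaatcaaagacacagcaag
Cd209a (GRCm38.p6, chr8:3748935-3749234, minus strand): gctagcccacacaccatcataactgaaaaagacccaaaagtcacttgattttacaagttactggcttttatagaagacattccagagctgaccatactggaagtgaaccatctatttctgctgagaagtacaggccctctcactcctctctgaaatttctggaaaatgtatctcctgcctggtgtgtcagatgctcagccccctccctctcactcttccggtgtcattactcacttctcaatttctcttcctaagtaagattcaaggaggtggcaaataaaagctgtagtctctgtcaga
RefSeq windows were found for 9 of the 10 members, and Clec10a was the member not matched. In pairwise alignments, Cd209a and Cd209e were identical at 70.7% of aligned columns, Cd209a and Cd209d 69.1%, and Cd209d and Cd209e 61.4%. Pairs of members that were not both Cd209 genes ran from 52% (Xcr1 and Cd209e) to 66% (Cd209e and Itgax). The value for Cd209d and Cd209e lay within that range. This motif began at position -79 from the Cd209e start, on the printed strand, and was not in the Cd209a or Cd209d windows. Among the 9 members with a window, Cd209e and Itgax held it, against 6.95% of 32851 mouse promoter windows of the same length. Searches on both strands for the STAT motif with 3 bases between TTC and GAA, the PU.1 core GAGGAAG and an IRF repeat of GAAA, any 2 bases and GAAA found 0 of 9 members, against 8.3%, 13.6% and 3.44% of all windows. The AP-1 motif TGANTCA was in the Itgax window alone, against 7.81% of all windows.

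Cd209e stood at 10.58, 10.89, 11.11 and 10.13 on KO HDM arrays 1 to 4, at 8.67, 8.3, 8.08 and 8.22 on KO saline arrays, at 9.13, 8.69, 8.9 and 8.89 on WT HDM arrays and at 8.22, 8.96, 8.92 and 8.37 on WT saline arrays. All KO HDM arrays were above all others, and the 2 WT groups overlapped, with WT saline 2 and 3 at the level of WT HDM. HDM against saline was +2.36 in KO lungs (SE 0.19, 5.12-fold, adjusted p 2.03e-06) and +0.28 in WT lungs (SE 0.19, adjusted p 0.298). Without WT saline 2 and 3 the WT change was +0.61 and still missed the test (adjusted p 0.102). The genotype difference under HDM, KO against WT, was +1.77 (SE 0.19, 3.42-fold, adjusted p 0.000102), and under saline it was -0.3 (SE 0.19, adjusted p 0.82). The interaction of Cd209e was +2.07 (SE 0.28, adjusted p 0.00371), and +1.75 (adjusted p 0.0313) without WT saline 2 and 3.

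Cd209d was raised by HDM in both genotypes. It stood at 10.29, 11.04, 10.98 and 10.37 on KO HDM arrays, at 8.93, 8.72, 9.11 and 9 on KO saline arrays, at 10, 9.73, 9.58 and 9.97 on WT HDM arrays and at 8.66, 9.26, 9.41 and 8.47 on WT saline arrays. No HDM array overlapped the saline arrays of its genotype, and all KO HDM arrays were above all WT HDM arrays. HDM against saline was +1.73 in KO lungs (SE 0.2, 3.32-fold, adjusted p 4.5e-05) and +0.87 in WT lungs (SE 0.2, 1.82-fold, adjusted p 0.00831). Between KO and WT lungs given HDM the difference was +0.85 (SE 0.2, adjusted p 0.0126), and under saline it was -0.01 (adjusted p 0.999). The interaction of +0.86 (SE 0.28) did not pass (adjusted p 0.142), and without WT saline 2 and 3 it was +0.48 (adjusted p 0.499).

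Of the other genes of the cluster, Cd209b, Cd209c, Cd209f and Cd209g were not called higher with HDM in either genotype. Their mean levels of 8.12 to 8.48 lay below the array medians, and Cd209a is described further below. Cd209f was lowered by HDM, by 0.84 in KO lungs (adjusted p 0.00469) and by 0.54 in WT lungs (adjusted p 0.0395), and Cd209g was lowered in WT lungs by 0.42 (adjusted p 0.00269). Cd209b and Cd209c passed in none of the 5 comparisons, with Cd209b at +0.04 and Cd209c at -0.15 for HDM in KO lungs. They were among 28 other C-type lectins, of which HDM in KO lungs raised 7 and lowered 1, where 8.84% of all genes passed. Cd209b, Cd209c and Cd209g were named after their values were seen.

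Mgl2 and Clec10a are the mouse macrophage galactose-type lectins, 29.1 kb apart on chromosome 11 (GRCm38.p6), and mark cDC2, monocyte-derived cells and macrophages of the alternative type. Mgl2 stood at 10.7, 10.71, 10.78 and 10.62 on KO HDM arrays, at 9.74, 9.69, 10.15 and 9.9 on KO saline arrays, at 10.16, 10.39, 9.97 and 10.4 on WT HDM arrays and at 9.15, 9.96, 9.85 and 9.69 on WT saline arrays. All HDM arrays of either genotype were above the saline arrays of that genotype, and the KO HDM arrays were above the WT HDM arrays. HDM against saline was +0.83 in KO lungs (SE 0.14, adjusted p 0.00157) and +0.57 in WT lungs (SE 0.14, adjusted p 0.0145), and the interaction was +0.26 (SE 0.2, adjusted p 0.565), or +0.02 without WT saline 2 and 3 (adjusted p 0.979). KO against WT under HDM was +0.47 (SE 0.14, adjusted p 0.0412), a call lost when any 1 of KO HDM 1, 2 and 3, KO saline 4, WT HDM 1, 2 and 3 and WT saline 4 was left out (adjusted p 0.0505 to 0.104), and with arrays shifted to the same median (0.0557).

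Clec10a differed between genotypes under HDM. It stood at 8.86, 8.75, 8.95 and 8.54 on KO HDM arrays, at 8.28, 8, 8.34 and 8.38 on KO saline arrays, at 8.24, 8.39, 8.24 and 8.41 on WT HDM arrays and at 8.17, 8.27, 7.93 and 8.18 on WT saline arrays. The KO HDM arrays were above all others, and the 2 WT groups overlapped. The HDM change was +0.53 in KO lungs (SE 0.1, adjusted p 0.00235) and +0.18 in WT lungs (SE 0.1, adjusted p 0.183), and KO against WT was +0.46 under HDM (SE 0.1, adjusted p 0.00764) and +0.11 under saline (adjusted p 0.895). The interaction of +0.35 (SE 0.14) did not pass (adjusted p 0.223).

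Cd209a, used as a marker of monocyte-derived and cDC2 cells, had 1 array far below the rest. It stood at 11.85, 11.82, 12.17 and 12.06 on KO HDM arrays, at 11.65, 11.47, 11.62 and 11.53 on KO saline arrays, at 11.98, 11.34, 11.37 and 11.55 on WT HDM arrays and at 8.17, 11.22, 11.6 and 10.79 on WT saline arrays. WT saline 1 was the low one, and it widened the spread of the shared fit to an SE of 0.47. In KO lungs all HDM arrays were above all saline arrays, with a change of +0.41 (adjusted p 0.652), and without WT saline 1 that change had an SE of 0.15 and an adjusted p of 0.113. A fit of the 2 KO groups alone gave an adjusted p of 0.0115. In WT lungs the HDM change was +1.12 (adjusted p 0.103), and +0.36 (adjusted p 0.161) without WT saline 1. It was +1.5 (adjusted p 0.0456) without WT saline 3, and +2.08 (adjusted p 0.0144) without WT saline 2 and 3, so this value rests on which WT saline arrays are kept. KO against WT was +0.42 under HDM (adjusted p 0.623) and +1.12 under saline (adjusted p 0.544). Without WT saline 1 the difference under HDM was again +0.42, with an SE of 0.15 and an adjusted p of 0.0871 (limma). The saline difference was then +0.37 (adjusted p 0.653).

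The cDC1 receptors did not move together. Clec9a binds exposed actin of dead cells, and Xcr1 is the receptor of the chemokine Xcl1, which NK and CD8 T cells release. Clec9a stood at 8.73, 8.64, 8.58 and 8.47 on KO HDM arrays, at 8.64, 8.51, 8.83 and 8.8 on KO saline arrays, at 8.85, 9.02, 9.13 and 9.02 on WT HDM arrays and at 8.65, 8.57, 8.41 and 8.47 on WT saline arrays. The WT HDM arrays were the highest of all, and the KO groups overlapped. With HDM, Clec9a changed by -0.09 in KO lungs (SE 0.08, adjusted p 0.551) and +0.48 in WT lungs (SE 0.08, 1.4-fold, adjusted p 0.00152). KO against WT was -0.4 under HDM (SE 0.08, adjusted p 0.00671) and +0.17 under saline (SE 0.08, adjusted p 0.65).

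The interaction of Clec9a was -0.57 (SE 0.12, adjusted p 0.0353). That call was lost when any of 9 single arrays was left out, with adjusted p between 0.0575 and 0.0782 in those fits (KO HDM 2 and 3, KO saline 3 and 4, WT HDM 2 and 4, and WT saline 2, 3 and 4), and the value was between -0.64 and -0.53 over all single-array removals. Without WT saline 2 and 3 together it was -0.54 (adjusted p 0.162). Dbp, an output gene of the daily clock and named after its values were seen, was at 10.6 to 11.15 on the WT HDM arrays, against 9.51 to 10.19 on KO HDM, 9.47 to 9.86 on KO saline and 9.45 to 9.68 on WT saline arrays. Clec9a and Dbp thus shared the group in which both were high, with r of 0.74 over 16 arrays and -0.28 for deviations from group means. The part of daily time in the Clec9a result was not tested. Nor was it tested for any other gene in the comparisons that use the WT HDM arrays, the interaction included.

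Xcr1 stood at 10.91, 10.4, 10.59 and 10.26 on KO HDM arrays, at 10.31, 9.97, 10.25 and 10.2 on KO saline arrays, at 10.32, 9.88, 10.15 and 9.94 on WT HDM arrays and at 10.2, 9.87, 10.09 and 9.69 on WT saline arrays. In each of the 4 comparisons the groups overlapped, and KO HDM had the highest mean. Within all 4 groups replicate 1 was highest and replicate 3 next. The change with HDM was +0.36 in KO lungs (SE 0.14, adjusted p 0.114) and +0.11 in WT lungs (SE 0.14, adjusted p 0.578). With the replicate number as a block, the change in KO lungs passed (adjusted p 0.00724, limma). KO against WT under HDM was +0.47 (SE 0.14, adjusted p 0.0332), a call lost without KO HDM 1 or 3 or WT HDM 2 or 4 (adjusted p 0.126, 0.0856, 0.106 and 0.089), without WT saline 2 and 3 (0.0504) and in a fit of the 2 groups alone (0.0935). Under saline it was +0.22 (adjusted p 0.79). Xcl1, the ligand, was not called in any comparison, at -0.07 for HDM in KO lungs and +0.23 in WT lungs (adjusted p 0.687 and 0.0993).

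**Figure D2:**
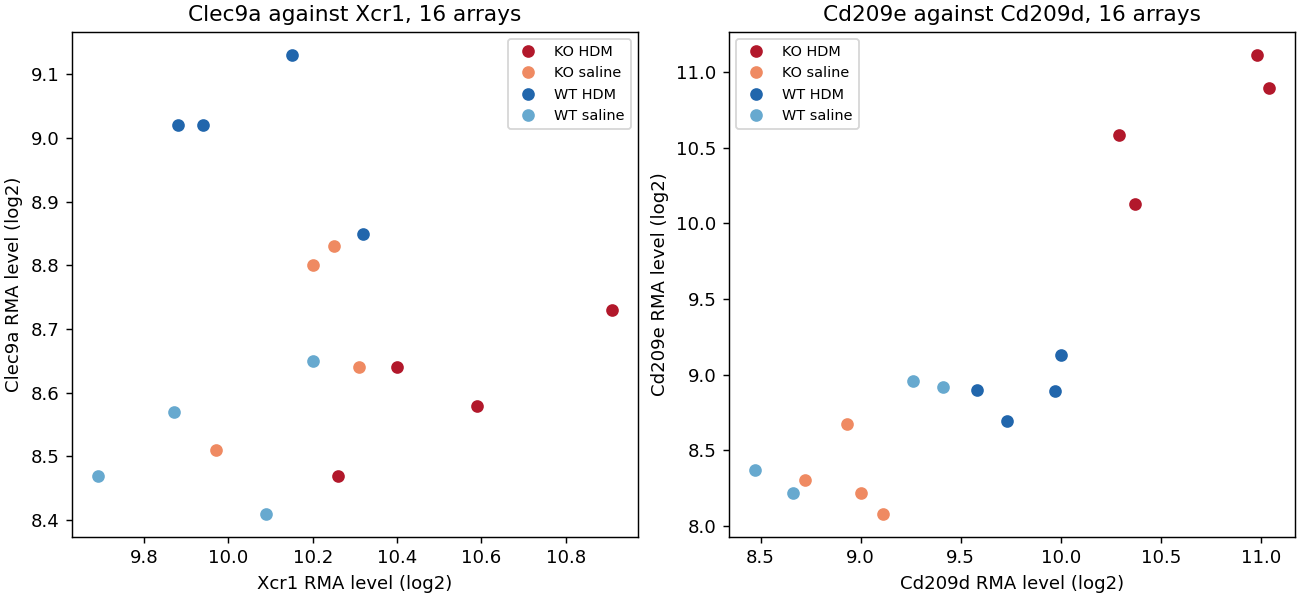
Levels of pairs of members against each other on the 16 arrays, with axes in log2 level and points coloured by group. Clec9a and Xcr1 had r of 0 over the 16 arrays, while Cd209d and Cd209e had r of 0.91.

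Set side by side, the cDC1 pair and the trio of cDC2 and monocyte-derived genes had these changes. For HDM in KO lungs the pair had -0.09 (Clec9a) and +0.36 (Xcr1), neither past the test in the main fit. With the replicate number as a block Xcr1 passed. The trio had +0.41 (Cd209a), +0.53 (Clec10a) and +0.83 (Mgl2), of which Clec10a and Mgl2 passed. For HDM in WT lungs Clec9a at +0.48 and Mgl2 at +0.57 passed, and Xcr1, Cd209a and Clec10a did not. For KO against WT under HDM, Clec9a was lower by 0.4 and Xcr1 higher by 0.47, so the 2 cDC1 genes passed in opposite directions. Clec10a and Mgl2 passed at +0.46 and +0.47, and Cd209a at +0.42 did not. The Xcr1 and Mgl2 calls were lost in 4 and 8 of 16 single-array removals. The mean levels of Clec9a and Clec10a lay at percentiles 40.1 and 32 of all genes. The difference between the pair and the trio was not tested.

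**Figure D3:**
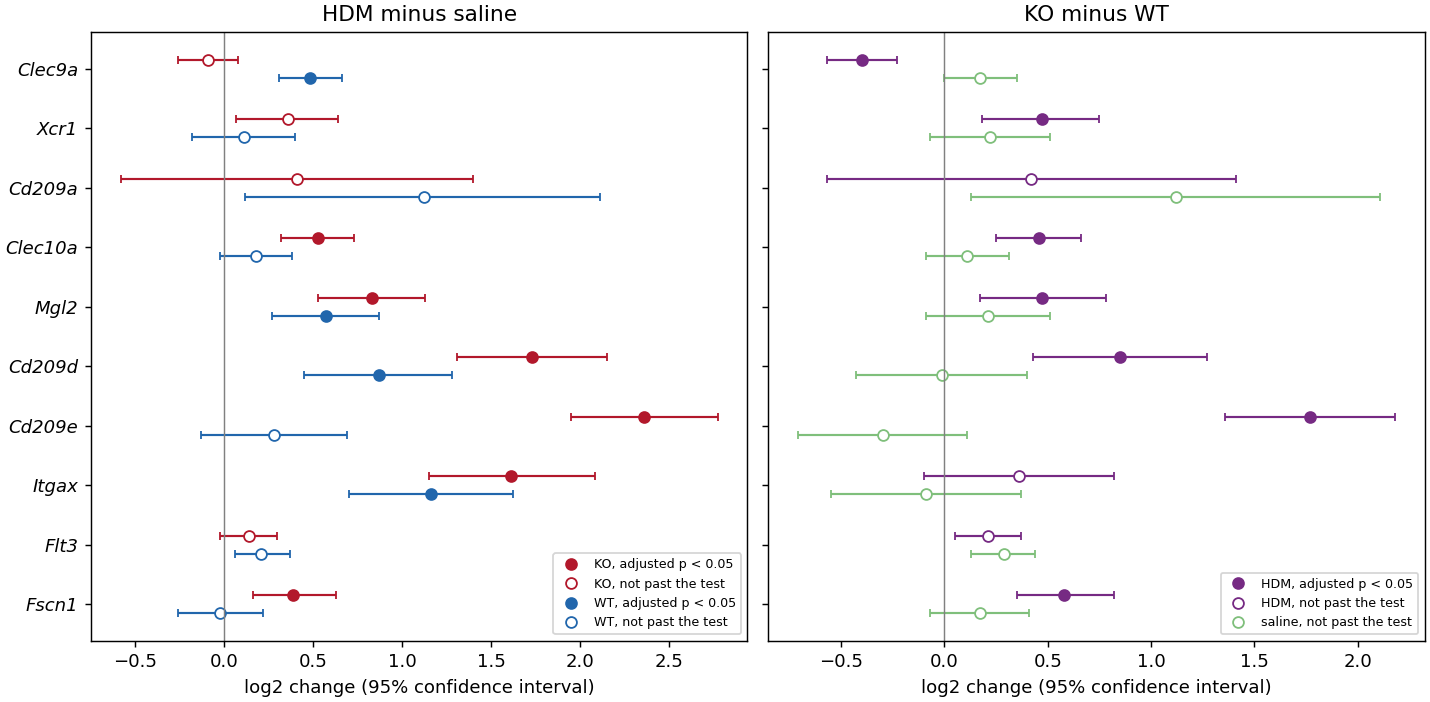
Log2 change of each member for HDM against saline (left panel, KO and WT) and for KO against WT (right panel, HDM and saline), with 95% confidence intervals as bars and filled points at an adjusted p under 0.05. In the right panel Clec9a is below 0 and 6 members are above 0 among the filled points.

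Of 15 other genes tied to the cDC1 lineage, 14 were measured, and these include the Xcr1 ligand Xcl1, which other cells release. HDM in KO lungs raised 1, Wdfy4 at +0.6 (SE 0.11, adjusted p 0.0023), which is needed for cross-presentation, and lowered 1, Cd8a at -0.4, which T cells also express. HDM in WT lungs raised 3, Ly75 (+0.72), Tlr3 (+0.45) and Wdfy4 (+0.35), and lowered Cd8a (-0.34). Under HDM, KO against WT had Itgae (+0.47, adjusted p 0.00368) and Wdfy4 (+0.47, adjusted p 0.0135) higher and Tlr3 (-0.37, adjusted p 0.0104) lower, and under saline 0 of 14 passed. The median change of the 14 was 0.04 for HDM in KO, 0.06 for HDM in WT and 0.09 for KO against WT under HDM. Of all genes, 8.84%, 17.6% and 11.7% passed in these comparisons, and 0.231% for KO against WT under saline. Tlr3, a sensor of double-stranded RNA that is not restricted to these cells, was lower in KO than in WT lungs given HDM without overlap, at 9.87, 10.3, 10.06 and 10.35 on KO HDM arrays and 10.44, 10.53, 10.44 and 10.66 on WT HDM arrays. Batf3 and Irf8, factors that set up the lineage and named after their values were seen, were called in none of these comparisons.

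Of 16 other cDC2 and monocyte-derived genes, 14 were measured. HDM in KO lungs raised Itgam (+0.9), Ccr2 (+0.58) and Fcer1a (+0.33), of which Itgam is the CD11b integrin and Ccr2 the receptor that brings monocytes from blood. HDM in WT lungs raised Itgam (+0.69), Ccr2 (+0.55) and Fcer1g (+0.49) and lowered Klf4 (-0.34). Higher in KO than in WT lungs under HDM were Fcer1a (+0.33, adjusted p 0.0226) and Cd207 (+0.22, adjusted p 0.0373), and under saline 0 of 14 passed. Cd207 had a similar difference under saline, at +0.23 (adjusted p 0.229, limma). Both genes had low levels, below the array medians on every array, with Fcer1a at 6.62 to 7.31 and Cd207 at 7.53 to 8.01. The median change of the 14 was 0.08, 0.09 and 0.1 in the 3 comparisons that involve HDM, in the same order. Of all genes, 8.84%, 17.6% and 11.7% passed in those 3, and 0.231% for KO against WT under saline.

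Itgax encodes the CD11c integrin, which most lung dendritic cells and also alveolar macrophages carry. It stood at 11.9, 11.87, 11.72 and 11.27 on KO HDM arrays, at 9.94, 10.03, 10.31 and 10.03 on KO saline arrays, at 11.09, 10.67, 11.76 and 11.79 on WT HDM arrays and at 9.75, 10.51, 10.42 and 9.98 on WT saline arrays. No HDM array overlapped the saline arrays of its genotype, and the HDM groups of the 2 genotypes overlapped. The HDM change was +1.61 in KO lungs (SE 0.22, 3.06-fold, adjusted p 0.00021) and +1.16 in WT lungs (SE 0.22, 2.24-fold, adjusted p 0.00291), with an interaction of +0.45 (SE 0.31, adjusted p 0.51). The interaction was +0.23 without WT HDM 2 (adjusted p 0.79) and +0.15 without WT saline 2 and 3 (adjusted p 0.906). Itgb2 encodes the beta chain of CD11c and of related integrins and was named after its values were seen. It had the highest correlation with Itgax (r 0.978 over 16 arrays) among the genes searched, which left out predicted and non-coding genes.

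Flt3 is the receptor of the growth factor that dendritic cell precursors need. It stood at 9.57, 9.36, 9.57 and 9.49 on KO HDM arrays, at 9.39, 9.16, 9.51 and 9.38 on KO saline arrays, at 9.42, 9.24, 9.31 and 9.17 on WT HDM arrays and at 9.13, 9.12, 9 and 9.03 on WT saline arrays. The WT saline arrays were the lowest, below all WT HDM and all KO saline arrays. HDM against saline in WT lungs was +0.21 (SE 0.07, adjusted p 0.0544) and in KO lungs +0.14 (SE 0.07, adjusted p 0.283). KO against WT was +0.29 under saline (SE 0.07, adjusted p 0.156), and with HDM it was +0.21 (SE 0.07, adjusted p 0.0745), so the test was missed in all 4. The WT change with HDM passed under some alternatives, with an adjusted p of 0.0394 after arrays were shifted to the same median.

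Its ligand Flt3l was raised by HDM in WT lungs by +0.4 (SE 0.08, adjusted p 0.00399) and was at -0.08 in KO lungs (SE 0.08, adjusted p 0.568). Flt3l stood at 10.61, 10.36, 10.51 and 10.79 on KO HDM arrays and at 11.2, 11.06, 11 and 11.01 on WT HDM arrays, which did not overlap, and KO against WT under HDM was -0.5 (SE 0.08, adjusted p 0.00173). The interaction of -0.48 missed the test at an adjusted p of 0.0545. Of 16 genes of dendritic cell development and growth factors, HDM raised 6 in KO lungs, among them Csf2rb (+0.71) and Csf2ra (+0.63), and 6 in WT lungs, among them Csf2ra (+1.04) and Csf2rb (+0.68), which encode the receptor of GM-CSF. Csf2, which encodes GM-CSF, was called in none, at -0.22 for HDM in KO lungs and +0.31 in WT lungs. Of all genes, HDM against saline passed for 8.84% in KO lungs and 17.6% in WT lungs.

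Fscn1 encodes fascin, an actin-bundling protein of mature dendritic cells that is also made by other cells. It stood at 9.93, 9.89, 10.18 and 9.68 on KO HDM arrays, at 9.53, 9.42, 9.49 and 9.67 on KO saline arrays, at 9.45, 9.05, 9.3 and 9.55 on WT HDM arrays and at 9.16, 9.37, 9.35 and 9.55 on WT saline arrays. All KO HDM arrays were above all others. KO against WT under HDM was +0.58 (SE 0.11, adjusted p 0.00473). The change with HDM was +0.39 in KO lungs (SE 0.11, adjusted p 0.0356) and -0.02 in WT lungs (SE 0.11, adjusted p 0.912). The KO call was lost without any one of KO HDM 1, 2 and 3 or KO saline 1, 2 and 3, and at 0.0605 without WT saline 2 and 3.

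Other genes of dendritic cell maturation were raised in part. Of 20 listed, 18 were measured, and HDM raised 6 in KO lungs, with Ccl22 (+1), Ccl17 (+0.98), Samsn1 (+0.87) and Pdcd1lg2 (+0.76) the largest. In WT lungs HDM raised 5 and lowered 1, with Ccl17 (+0.94), Cd274 (+0.79), Cd80 (+0.57) and Samsn1 (+0.44) the largest rises and Il12b (-0.21) the fall. Under HDM, KO against WT had 7 of 18 higher, among them the chemokines Ccl22 (+0.82, adjusted p 0.0087) and Ccl17 (+0.67, adjusted p 0.0261) and the costimulatory gene Cd86 (+0.6, adjusted p 0.0242). Under saline 0 of 18 passed, but Ccl17 was at a similar +0.63 (SE 0.18, adjusted p 0.236, limma). The interaction passed for 0 of 18. Of all genes, 8.84% passed for HDM in KO lungs, 17.6% for HDM in WT lungs and 11.7% for KO against WT under HDM. For KO against WT under saline 0.231% passed, and for the interaction 0.802%, so 0 of 18 there says little about the list. The median change of the 18 was 0.23 for HDM in KO, 0.11 for HDM in WT and 0.21 for KO against WT under HDM. Ccr7, the receptor that leads mature dendritic cells to lymph nodes and named after its values were seen, was at -0.05 for HDM in KO lungs and -0.09 in WT lungs, and passed in none of the comparisons.

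**Figure D4:**
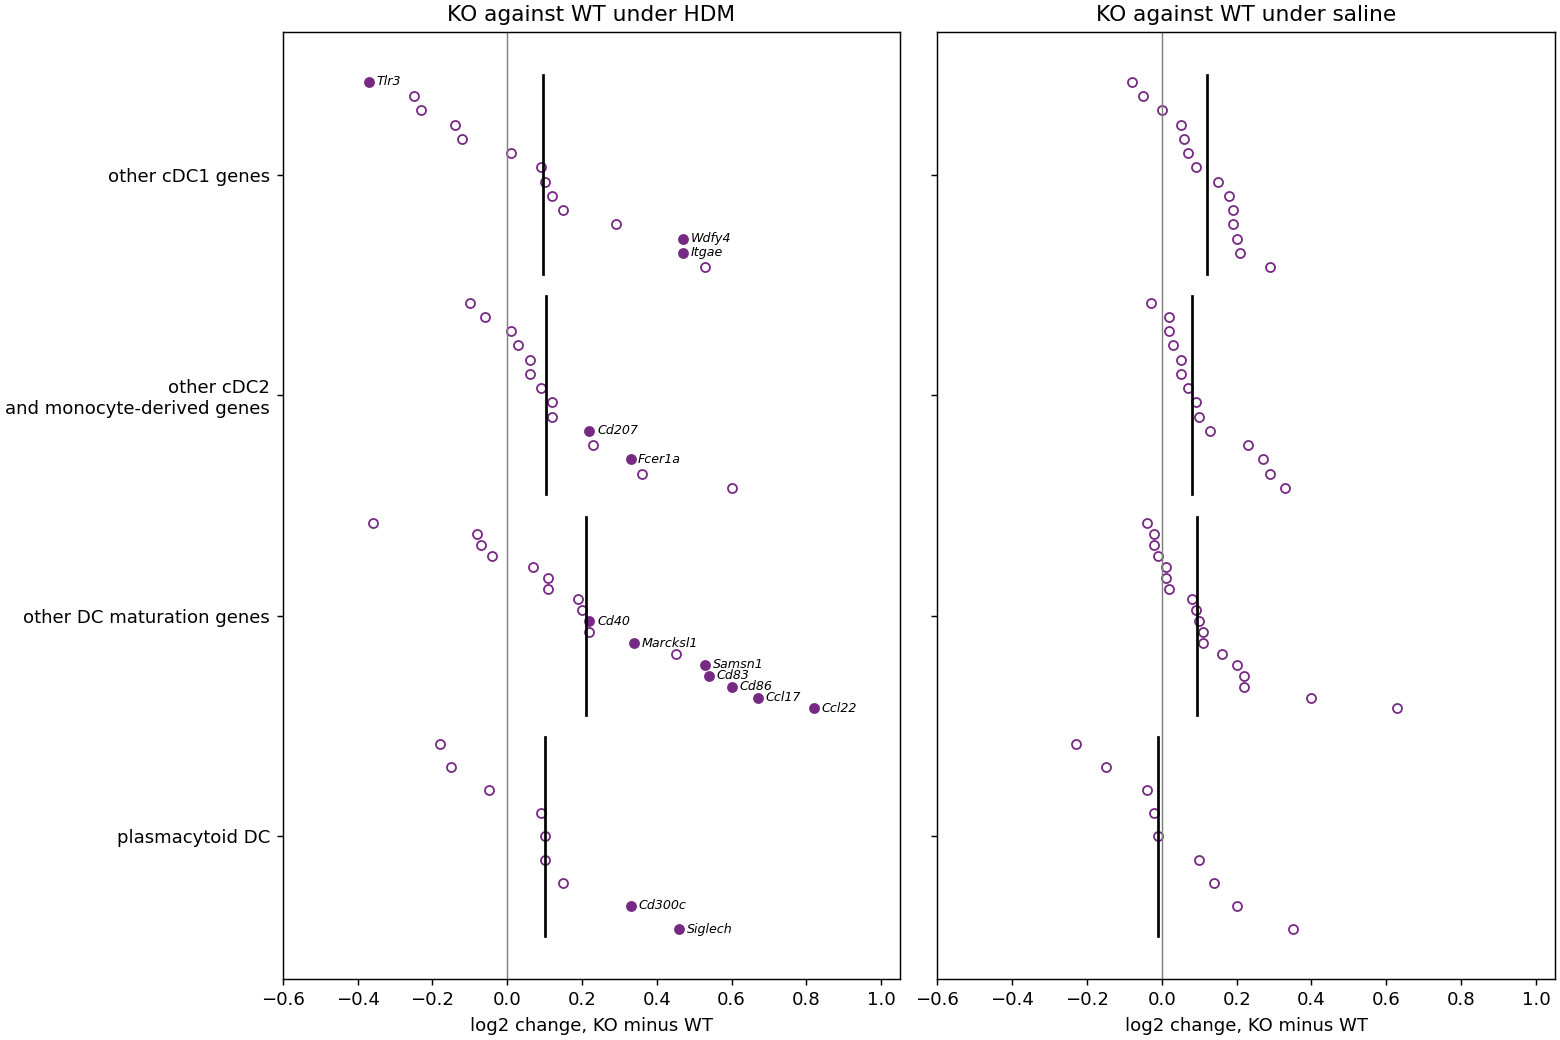
Log2 change of KO against WT under HDM (left) and under saline (right) for each measured gene of 4 lists, with filled points at an adjusted p under 0.05 and a bar at each list's median. Of the 18 maturation genes, 7 are filled under HDM and none under saline, where Ccl17 was at +0.63. The interaction passed for 0 of 18. Of all genes, 11.7% passed under HDM, 0.231% under saline and 0.802% for the interaction.

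Genes of other cell types that carry members also moved. HDM against saline raised 9 and lowered 1 of 16 interstitial and alternatively activated macrophage genes in KO lungs and raised 5 and lowered 1 in WT lungs, and their mean level was 10.49 to 10.99 on KO HDM arrays, 9.84 to 10 on KO saline, 10.15 to 10.74 on WT HDM and 9.83 to 10.29 on WT saline arrays. Of 8 eosinophil genes, HDM raised 6 in KO and 3 in WT lungs, with mean levels of 9.8 to 10.5 on KO HDM arrays, 8.24 to 8.48 on KO saline, 9.29 to 9.8 on WT HDM and 8.43 to 9.11 on WT saline arrays. Of 11 measured alveolar macrophage genes, HDM raised 2 and lowered 3 in KO lungs and raised 4 and lowered 0 in WT lungs. In KO lungs these included Chil3 at +1.35 and Fabp1 at -1.13, so the mean covers opposite changes. The 11 genes had mean levels of 10.39 to 10.75 on KO HDM arrays, 10.54 to 10.66 on KO saline, 10.58 to 10.96 on WT HDM and 10.29 to 10.47 on WT saline arrays. Of 8 measured thymus and lymphoid tissue genes, HDM lowered 2 in KO and 4 in WT lungs, with mean levels of 8.95 to 9.32 on KO HDM arrays, 9.46 to 9.7 on KO saline, 8.39 to 9.07 on WT HDM and 9.48 to 9.8 on WT saline arrays. Mgl2, Clec10a and Itgax can be made by macrophages, and lymphoid tissue holds dendritic cells of its own. The part of these cells and tissues in the results above was not tested. For HDM against saline, 8.84% of all genes passed in KO lungs and 17.6% in WT lungs. The counts of these lists were not refitted without WT saline 2 and 3.

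The members split by how they varied over the 16 arrays, which share their groups, so the correlations are descriptions. Cd209d and Cd209e had r of 0.91 over all arrays and 0.71 for deviations from group means. Mgl2 and Cd209d had 0.91 and 0.56, and Xcr1 and Flt3 0.8 and 0.63. Clec9a had its highest r with Itgax at 0.35 over all arrays, and 0.66 with Clec10a within groups. The search for the genes most like a member left out predicted genes, RIKEN clones, small RNAs, antigen receptor segments and genes annotated as not coding for protein. The 5 genes most like Clec9a over the 16 arrays were Kdm6a (0.923), Senp7, Ccdc122, Xpr1 and Snx14 (0.888), a histone demethylase and genes of other roles. Those most like Clec10a were Clcn5 (0.924), Serpind1, Dnajc3, Qpct and Slc5a1 (0.904), and those most like Cd209e were Fetub (0.96), Ramp3, Neb, Ocstamp and Ccr8 (0.947). For Xcr1, the cDC1 gene Wdfy4 was among the 3 most like it (r 0.899, within groups 0.9), named after the values were seen.

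**Figure D5:**
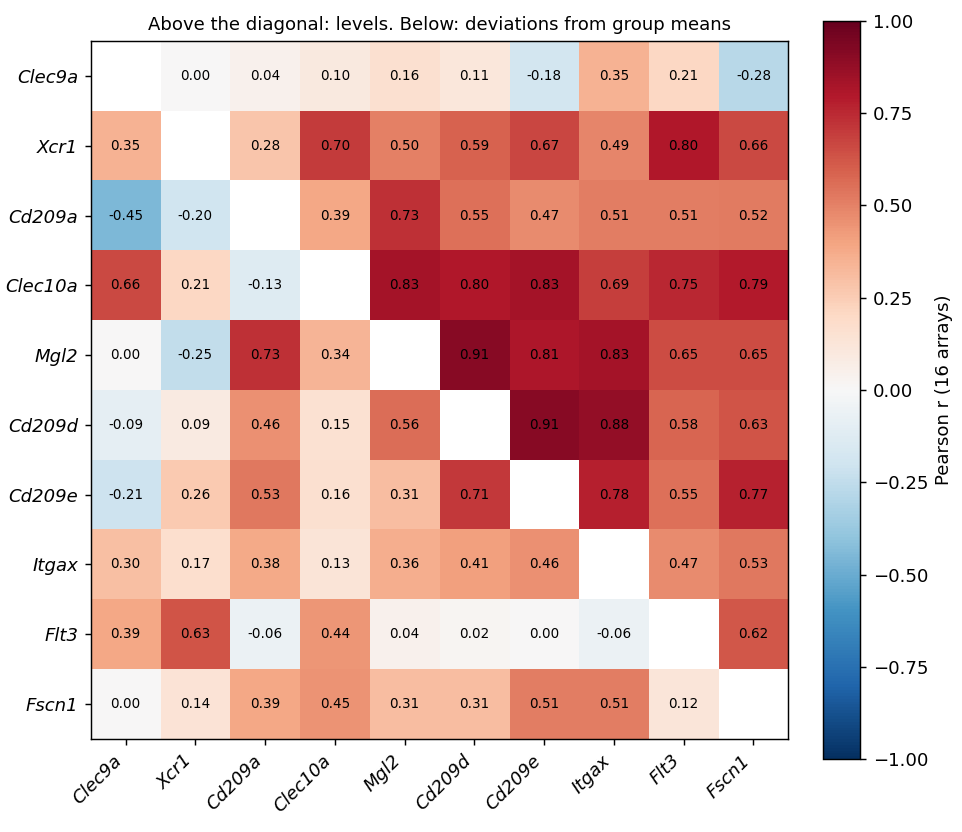
Pearson r between members over the 16 arrays, levels above the diagonal and deviations from group means below it, with colour from -1 to 1. Above the diagonal the Clec9a row runs from -0.28 with Fscn1 to 0.35 with Itgax.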

How the data were processed

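Whole-lung RNA from 4 groups of 4 samples was measured on 16 arrays. The deposited table gives 1 log2 value per probe set and array, made by the authors with RMA in Affymetrix Expression Console, as the submitters' processing notes name them; their versions and the annotation build were not given in the sources used here. RMA corrects background, normalizes between arrays and summarises probes. Precision is limited by the number of arrays. Of 35556 probe sets, 21789 had 1 symbol, 1621 several and 12146 were not named here. For the 999 genes with several probe sets the one with the highest mean was kept, which left 19938 genes. Of the probe sets with 1 symbol, 21698 matched the reference by gene ID.

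These values were fitted without further scaling by limma 3.58.1 in R 4.3.3, with 4 group means and 12 residual degrees of freedom over all arrays. Tests were two-sided, with Benjamini-Hochberg adjustment over all genes and a threshold of 0.05. The code of the fit was also run on simulated data with independent normal noise in each gene. Those data held no outlying arrays, so they cannot show how the fit deals with the WT saline arrays that stood apart here. The 5 comparisons share arrays, so they are not independent of each other. The members and lists were chosen with earlier results of these data known. Named genes are the members, Vldlr, the ligands Xcl1, Flt3l and Csf2, at most 4 genes per list and comparison (those that passed, by size, or the smallest p up to 2 genes), and the 5 genes most correlated with Clec9a, Clec10a and Cd209e; others are said to be named after their values were seen. Over all genes, samples with the same replicate number deviated together in 6 of 24 pairs of arrays (r above 0.1, range -0.28 to 0.33). The numbers were therefore not taken to pair samples, though single genes such as Xcr1 shared an order by number. Promoters are RefSeq windows of GRCm38.p6. Alternatives were quantile normalization, a shift to equal medians, a filter at the 50th percentile of level, array weights, robust estimation with a variance trend, averaged probe sets per gene, fitting 2 groups at a time, a block for replicate number, and leaving out single arrays or WT saline 2 and 3.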

Additional observations from a re-analysis of the deposited data

Results flagged for a closer look

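Among the 10 members, 2 had an HDM change that differed between genotypes by the interaction test. For Cd209e the HDM change in KO minus that in WT was 2.07 (SE 0.28, adjusted p 0.00371, limma). The HDM change was +2.36 in KO and +0.28 in WT lungs, and it remained called when any single array was left out (1.93 to 2.25, adjusted p 0.000366 to 0.0144). For Clec9a it was -0.57 (SE 0.12, adjusted p 0.0353), with HDM changes of -0.09 in KO and +0.48 in WT lungs, and the call was lost in 9 of the 16 single-array removals. The Dixon gap test over 40 groups of 4 arrays found 0 past its critical value, Cd209a on WT saline 1 included. Chance flags about 1 in 20 groups.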

How the results depend on the processing

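Over the members' single-gene results under the alternatives, 1183 of 1230 kept their direction and their side of the threshold, 32 fell short of it, 15 passed it newly and 0 reversed. All counts are of genes at an adjusted p under 0.05 by limma. HDM in KO lungs gave 1763 genes, 2938 with array weights, and 1034 to 2673 with single arrays left out. HDM in WT lungs gave 3505 genes, 2289 among genes above the median level, 1057 without WT saline 2 and 3, and 1960 to 3799 with single arrays left out. KO against WT under HDM gave 2327 genes, 390 in a fit of only the 2 groups, and 968 to 3831 with single arrays left out. KO against WT under saline gave 46 genes, 19 among genes above the median level, 110 with array weights, 98 in a fit of only the 2 groups, 10 without WT saline 2 and 3, and 14 to 66 with single arrays left out. The interaction gave 160 genes, 680 with array weights, 258 with the replicate number as a block, 12 without WT saline 2 and 3, and 41 to 1019 with single arrays left out. Among the members the interaction count was 2, with 1 among genes above the median level (Clec9a and Clec10a fell under that filter), 1 without WT saline 2 and 3, and 1 to 2 with single arrays left out. The other member counts with single arrays left out were 5 to 7 for HDM in KO lungs, 4 to 5 for HDM in WT lungs, 5 to 7 for KO against WT under HDM and 0 under saline. With the replicate number as a block, Xcr1 for HDM in KO lungs passed at +0.36 (adjusted p 0.00724) and Flt3 for HDM in WT lungs at +0.21 (adjusted p 0.041); the block changed no other call of a member by loss or gain. The fit of only the 2 groups was not run for the interaction. In each group Xcr1 was highest on replicate 1 and next on replicate 3, so its HDM call in KO lungs depends on whether the number is used. With 4 arrays a group, the HDM change of Flt3 in WT lungs rested near the threshold. The cause of these shifts was not tested.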

Other observations

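Some C-type lectins of the Clec4a and Clec7 groups moved with HDM in both genotypes. Clec7a, the beta-glucan receptor dectin-1, was raised by HDM by +1.15 in KO and +0.91 in WT lungs, and Clec4a2 by +1.15 and +0.62. Under HDM, KO against WT had Clec4a3 (+0.63, adjusted p 0.0243), Clec4a2 (+0.63, adjusted p 0.00884) and Clec4b2 (+0.38, adjusted p 0.0161) higher and Clec1a (-0.55, adjusted p 0.0194) lower. Sftpd, the surfactant collectin, had an HDM change in KO minus that in WT of -0.59 (adjusted p 0.032).

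Of 9 measured plasmacytoid dendritic cell genes, HDM raised Ccr9 in KO (+0.46) and in WT lungs (+0.5), and Siglech, a defining gene of those cells, was lower by HDM in WT lungs (-0.23, adjusted p 0.0459). Under HDM, KO against WT had Siglech (+0.46, adjusted p 0.00218) and Cd300c (+0.33, adjusted p 0.00504) higher. The other 7 of the 9 were not called, the median change was 0.1, and 11.7% of all genes passed in this comparison. Under saline Siglech was at +0.2 (adjusted p 0.448, limma), and its interaction of +0.26 did not pass (adjusted p 0.254, limma).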
